A study of Danio rerio with 32 samples.

Results

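The comparison asked how the loss of Nrf2 changed the response of the larval zebrafish liver to acetaminophen (APAP) at 24 h. It was taken from the 16 libraries collected at 24 h, of 32 in the series, as the APAP response of nrf2 knockout (KO) livers minus that of wild-type (WT) livers. The 4 groups were KO with APAP, KO with dimethyl sulfoxide (DMSO), WT with APAP and WT with DMSO, each with 4 libraries. Every library held RNA from 20 pooled livers, and neither separate clutches nor the APAP dose, the larval age or the Nrf2 copy that was mutated is given in the sources used here. The p-values therefore measure the spread between these pools, which may be partly technical.

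APAP is an analgesic that cytochrome P450 enzymes of hepatocytes convert in part to a reactive quinone imine. The quinone imine is trapped by glutathione, and at high dose it depletes glutathione and injures the cell. Nrf2 is a transcription factor that its partner Keap1 holds in the cytoplasm and marks for destruction. When electrophiles modify Keap1, Nrf2 enters the nucleus and switches on genes for glutathione synthesis and transfer, for thiol repair and for the supply of NADPH.

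The 16 libraries held 4464405 to 5631360 counted reads, with a median of 5434010, and between 10459 and 14683 genes with at least 1 read. Genes of the hepatocyte list, which code for plasma proteins, held 9.01% to 19.1% of the counted reads, so the labelled tissue was present in every library. Exocrine and endocrine pancreas genes (40 in the table) also held a sizeable share. It was 2.63% to 3.58% in KO APAP livers, against 5.21% to 8.66% in KO DMSO livers, and 1.80% to 13.3% in WT APAP livers, against 4.15% to 9.17% in WT DMSO livers. In WT APAP replicates 1 to 4 the pancreas share was 1.86%, 13.3%, 1.80% and 7.45%. Replicate 2 held the highest share of the 16 libraries. Replicate 3 held the lowest, close to that of replicate 1, together with the highest scaling factor (1.36). Intestine genes held 2.99% to 4.45% in KO APAP livers, against 3.27% to 4.34% in KO DMSO livers, and 0.767% to 2.2% in WT APAP livers, against 1.19% to 1.96% in WT DMSO livers. Most tested members did not follow this summed share. Of 29 tested intestine genes, 21 had a negative value of KO against WT under APAP (median -0.53). Under DMSO the median was -0.06. In RNA from whole livers, fewer cells of a type and less RNA per cell cannot be told apart.

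Transcripts of the Nrf2 genes themselves did not separate the genotypes, and the kind of mutation is not given, so these levels do not check the labels. NFE2L2 (ENSDARG00000042824), the first of the Nrf2 genes, had 27.5, 36.6, 29.7 and 26.7 CPM in KO APAP livers, against 35.6, 28.2, 47.1 and 36.4 in KO DMSO livers, and 40.9, 34.6, 41.8 and 69.7 in WT APAP livers, against 46.3, 46.5, 36.6 and 43.1 in WT DMSO livers. All 4 pairs of groups overlapped. The second gene, nfe2l2b (ENSDARG00000089697), ranged over 0.606 to 5.19 CPM in KO APAP livers, against 1.16 to 6.19 in KO DMSO livers, and 0.897 to 9.28 in WT APAP livers, against 0.53 to 4.7 in WT DMSO livers, again with overlap in every pair. The difference in response was -0.40 for NFE2L2 (adjusted p = 0.846) and -0.56 for nfe2l2b (adjusted p = 0.95), on the log2 scale.

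The genotypes shared a large part of the APAP response. In KO livers 1301 of 9247 tested genes (14.1%) changed with APAP at an adjusted p under 0.05, 568 up (6.14%) and 733 down (7.93%). In WT livers 988 genes (10.7%) changed, 453 up (4.9%) and 535 down (5.79%). Of these, 605 were called in both genotypes, which is 46.5% of the KO calls and 61.2% of the WT calls, and 603 of the 605 moved the same way. Genes that rose in WT livers, chosen on those values, had a median log2 fold change of 1.2 in KO livers and 1.71 in WT livers, and genes that fell in WT livers had medians of -1.68 in KO livers and -1.68 in WT livers. Chosen on the KO values instead, genes that rose had medians of 1.58 in KO livers and 0.93 in WT livers. Those that fell in KO livers had -1.88 in KO livers and -1.21 in WT livers. Across genes, which are not independent replicates, the KO and WT responses had a Pearson r of 0.586, and they share no library.

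The response itself differed between the genotypes for 25 of 9247 genes (0.27%), with 12 more positive in KO livers (0.13%) and 13 more negative (0.141%). An unadjusted p under 0.05 was reached by 815 genes, and the median difference over all tested genes was -0.03 on the log2 scale. All 12 genes with a more positive response rose in KO livers, and in WT livers 4 of them also rose and 1, atf5b, fell. Of the 13 with a more negative response, 8 rose in WT livers, of which 1 also rose in KO livers, and 6 fell in KO livers, of which 2 also fell in WT livers. Under APAP, 493 genes (5.33%) differed between KO and WT livers, 246 higher (2.66%) and 247 lower (2.67%) in KO, and among them were all 12 of the first set, higher in KO, and 12 of the 13 of the second, lower in KO. Under DMSO, 186 genes (2.01%) differed, 96 higher (1.04%) and 90 lower (0.973%) in KO, and of the 25 only KPNA2 (higher) and CARTPT (lower) were among them. The 25 were chosen on a contrast of these same libraries. Calls of these genes in its parts, such as KO against WT under APAP, were therefore favoured by that choice. The count of 25 depended on the method, with 100 calls by DESeq2, 141 without a filter on low counts, 12 in a fit to all 32 libraries, and 16 to 48 when 1 library was left out. The 16 came without KO DMSO replicate 2 and the 48 without WT APAP replicate 4.

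**Figure D1:**
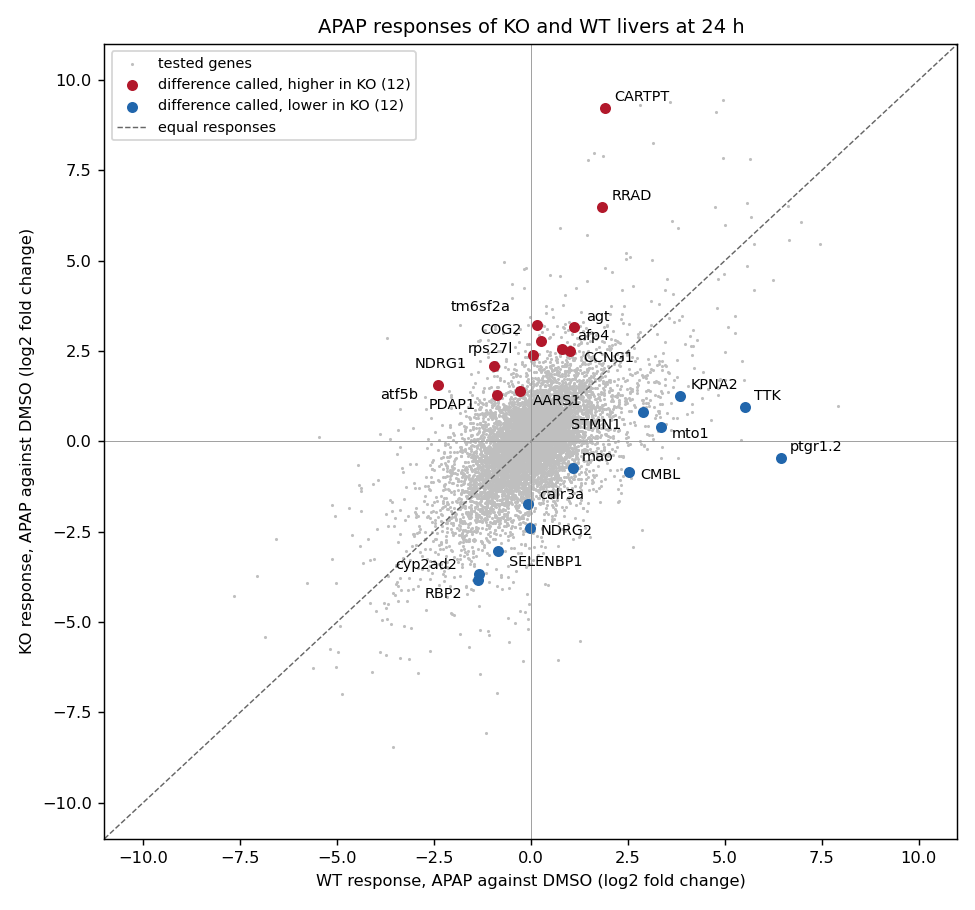
Log2 fold change of APAP against DMSO at 24 h in KO livers (vertical axis) and in WT livers (horizontal axis) for tested genes (grey). The 12 genes with a more positive response in KO (red) lie above the dashed line of equal responses, and 12 of the 13 with a more negative one (blue) lie below it, with ptgr1.2 and TTK far to the right near a KO response of 0.

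The genes ptgr1.2 and CMBL rose with APAP in WT livers and did not pass the test for a change in KO livers. The gene ptgr1.2 (ENSDARG00000087017) codes for a prostaglandin reductase, which uses NADPH to reduce reactive alkenals and some eicosanoids. It had 0, 4.67, 1.24 and 3.23 CPM in KO APAP livers, against 3.66, 4.1, 2.35 and 2.14 in KO DMSO livers, and 58, 95.8, 358 and 14.9 in WT APAP livers, against 0.662, 0.366, 2.44 and 2.47 in WT DMSO livers. The WT APAP libraries spread from 14.9 to 358 CPM and still lay above all others, whereas the KO APAP libraries overlapped those with DMSO. The difference in response was -6.90 ± 1.15, adjusted p = 0.00302, with a WT response of 6.45 and a KO response of -0.45. Its neighbour paralog ptgr1.1, with which reads may be shared, had a difference of -0.79 (adjusted p = 0.714).

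CMBL (ENSDARG00000073786) codes for a cysteine hydrolase that in humans activates a prodrug in the liver. Its levels were 9.86, 20.6, 36.7 and 30.7 CPM in KO APAP livers, against 44.1, 35.9, 46.9 and 49.3 in KO DMSO livers, and 201, 139, 228 and 94.5 in WT APAP livers, against 23.8, 22.3, 43.2 and 24.6 in WT DMSO livers. All WT APAP libraries were above all others, and the KO APAP libraries were below those of WT APAP without overlap. The responses were -0.85 in KO and 2.54 in WT livers, a difference of -3.39 ± 0.49, adjusted p = 9.12e-04. CMBL overlaps cct5 in the RefSeq annotation (GRCz12tu), and the strand setting of the counting is not given, so reads of overlapping genes cannot be told apart; CCT5 itself had a difference of -0.12 (adjusted p = 0.986). The calls of ptgr1.2 and CMBL held with every single library left out.

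Some known Nrf2 targets, namely prdx1, GCLC, TXNRD3 and HMOX1, were lower in KO livers with either treatment. Their responses did not pass the test for a difference. The gene prdx1 (ENSDARG00000058734), a peroxiredoxin that removes hydrogen peroxide, had 168, 144, 100 and 189 CPM in KO APAP livers, against 8.09, 15.3, 16 and 6.9 in KO DMSO livers, and 1208, 924, 1462 and 800.37 in WT APAP livers, against 29.3, 44.5, 56.3 and 27.9 in WT DMSO livers. It rose in both genotypes, by 3.69 in KO and 4.80 in WT livers, and the difference was -1.11 ± 0.43, adjusted p = 0.409. KO livers were below WT livers under APAP (-2.87 ± 0.31, adjusted p = 3.89e-06) and under DMSO (-1.76 ± 0.31, adjusted p = 0.00315), without overlap in either. A second peroxiredoxin, PRDX1 (ENSDARG00000025350), had a difference of -0.11 and was 589 to 977 CPM in KO APAP livers, against 809 to 1026 in KO DMSO livers, and 630.29 to 1109.8 in WT APAP livers, against 738 to 1074 in WT DMSO livers.

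GCLC, the catalytic subunit of the enzyme that limits glutathione synthesis, had 20.2, 16.2, 12.4 and 12.9 CPM in KO APAP livers, against 5.39, 6.78, 9.89 and 7.86 in KO DMSO livers, and 53.8, 41.8, 48.2 and 31.1 in WT APAP livers, against 23.7, 20.1, 23.5 and 13.6 in WT DMSO livers. The difference in response was -0.06 ± 0.42, adjusted p = 0.99, with 1.05 in KO and 1.11 in WT livers, and KO was below WT under APAP (-1.50) and under DMSO (-1.44) (adjusted p = 0.00204 and 0.00951). For GCLM, its regulatory subunit, the difference was -0.21 (adjusted p = 0.975) and all 4 pairs of groups overlapped. TXNRD3, a thioredoxin reductase, had a difference of 0.31 ± 0.35, adjusted p = 0.894 and was lower in KO livers both under APAP (-1.23) and under DMSO (-1.54), without overlap.

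KEAP1 (ENSDARG00000074634), the sensor that restrains Nrf2 and is itself induced by it, had 61.9, 24.3, 42.7 and 19 CPM in KO APAP livers, against 4.24, 10.4, 7.77 and 7.86 in KO DMSO livers, and 86, 106, 45.4 and 84.4 in WT APAP livers, against 36.1, 30, 18.8 and 17.8 in WT DMSO livers. It rose in both genotypes, and the difference was 0.64 ± 0.51, adjusted p = 0.813, with KO below WT under DMSO (adjusted p = 0.0129). Its paralog keap1a had a difference of -0.90 (adjusted p = 0.531). For keap1a, KO was below WT under APAP (-1.66, adjusted p = 8.89e-04). Under DMSO the value was -0.75 (adjusted p = 0.183), and KO and WT libraries did not overlap with either treatment. HMOX1, which degrades heme, was lower in KO livers under APAP (-2.83, adjusted p = 0.0183) and under DMSO (-3.32, adjusted p = 0.0244), with a difference in response of 0.49 (adjusted p = 0.948). The differences of NQO1 (0.29) and SQSTM1 (0.31) had adjusted p of 0.947 and 0.929. SRXN1 had 1 read at 24 h and was not tested.

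GSR, which reduces oxidised glutathione, had 49.99, 50.6, 50.6 and 79.4 CPM in KO APAP livers, against 8.09, 11.2, 14.6 and 14.3 in KO DMSO livers, and 451, 263, 377 and 166 in WT APAP livers, against 21.5, 26, 34 and 10.4 in WT DMSO livers. GSR rose with APAP in KO livers by 2.26 and in WT livers by 3.77, and the WT APAP libraries were above the KO APAP libraries without overlap. The difference of -1.51 had an adjusted p of 0.238, and of 0.0488 without a filter on low counts. PGD, an enzyme of the pentose phosphate pathway that makes NADPH, responded by 2.02 in KO and 3.11 in WT livers, and its difference of -1.09 had an adjusted p of 0.257.

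**Figure D2:**
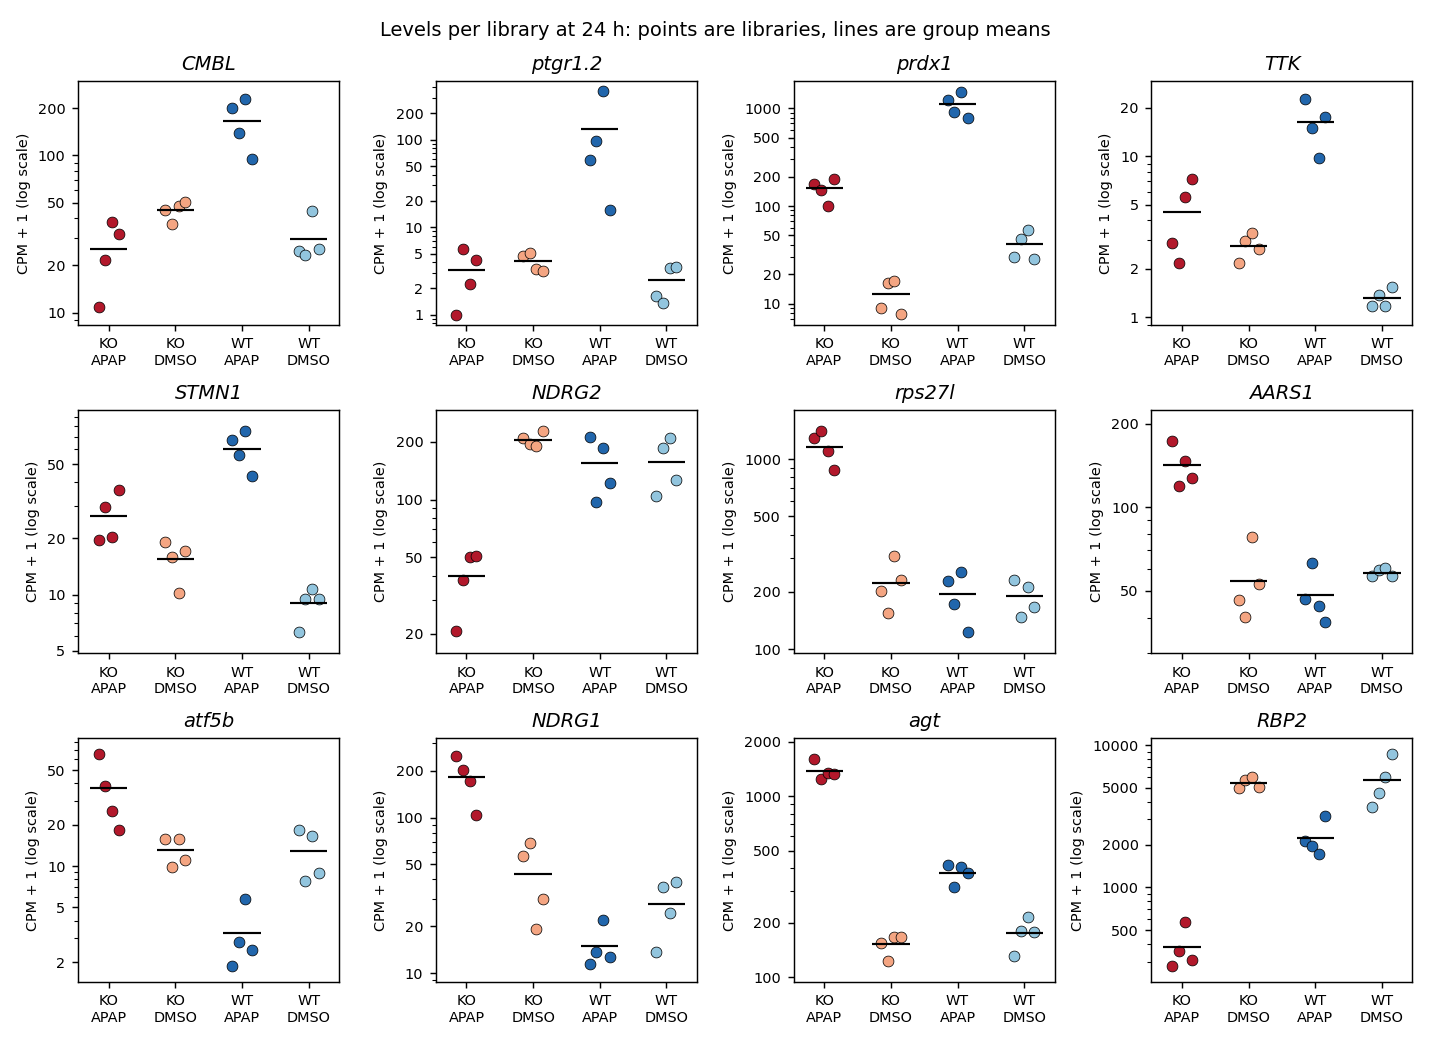
Level per library at 24 h as CPM + 1 on a log axis, for 12 genes in KO APAP, KO DMSO, WT APAP and WT DMSO livers; points are the 4 libraries of a group and lines are group means. CMBL and ptgr1.2 are high in WT APAP livers only among these groups, prdx1 is high with APAP in both genotypes at different levels, and rps27l, AARS1 and NDRG1 are highest in KO APAP livers.

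Over the 26 tested genes of the glutathione list, the median difference was -0.98, against -0.03 over all tested genes, and 22 of the 26 values were negative. None passed the test for a difference. In KO livers 5 rose and 6 fell with APAP, and in WT livers 11 rose and 3 fell. Under APAP, 9 were lower and 1 was higher in KO livers. For comparison here and in later lists, 6.14% of all tested genes rose and 7.93% fell in KO livers. In WT livers 4.9% of all tested genes rose and 5.79% fell. Under APAP 2.66% of all tested genes were higher and 2.67% lower in KO livers. The mean log2(CPM + 2) of this list was 4.84 to 5.09 in KO APAP libraries, against 4.82 to 5.12 in KO DMSO libraries, and 5.02, 5.70, 5.86 and 6.27 in WT APAP libraries, against 4.90 to 5.08 in WT DMSO libraries. WT APAP replicate 4 was the lowest of its group and lay within the WT DMSO range. The members with the smallest p for the difference, picked after their values were seen, were gstt1b, gstp1.2 and MGST1. The glutathione transferase gene gstt1b averaged 16.5 ± 6.79 CPM in KO APAP livers, against 14.3 ± 1.81 in KO DMSO livers, and 163 ± 90.1 in WT APAP livers, against 29.9 ± 2.36 in WT DMSO livers (SD, n = 4 each), a difference of -2.25 ± 0.51, adjusted p = 0.0543. The transferase gstp1.2, of the pi class that in mammals conjugates the APAP metabolite, averaged 612 ± 189.84 CPM in KO APAP livers, against 299 ± 75.4 in KO DMSO livers, and 3622 ± 2055 in WT APAP livers, against 358 ± 138 in WT DMSO livers, a difference of -2.30 ± 0.54, adjusted p = 0.0653. MGST1, a transferase of membranes, had a difference of -1.64 ± 0.39, adjusted p = 0.0744.

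The list of genes for quinones, heme, iron and NADPH held 28 tested genes with a median difference of -0.36, and 2 of them, including ptgr1.2, passed the test. In KO livers 10 rose and 4 fell, in WT livers 11 rose and 4 fell, and under APAP 10 were lower in KO and none was higher. The list of thiol and peroxide genes held 18 with a median of -0.08 and no member past the test. In it, 4 rose and 3 fell in KO livers and 4 rose and 1 fell in WT livers. The glutathione peroxidase gpx1a came nearest, at -1.42 ± 0.31, adjusted p = 0.0508, having fallen in KO livers (-1.05) beside a response of 0.37 in WT livers. The thioredoxin gene txnb rose in both, by 4.49 in KO and 4.82 in WT livers. Over the 18 thiol and peroxide genes the median of KO against WT was positive with either treatment. Under APAP it was 0.20, with 2 genes called higher and 4 lower in KO. Under DMSO it was 0.34, with 2 called higher and 3 lower. Of all tested genes, 1.04% were higher and 0.973% lower in KO under DMSO.

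The cell division genes TTK and STMN1 and the importin gene KPNA2 rose in WT livers and had a more negative response in KO livers. TTK (ENSDARG00000041361), a kinase of the mitotic spindle checkpoint, had 1.9, 1.17, 4.56 and 6.27 CPM in KO APAP livers, against 1.16, 1.96, 2.35 and 1.67 in KO DMSO livers, and 21.6, 14, 8.78 and 16.6 in WT APAP livers, against 0.165, 0.366, 0.174 and 0.53 in WT DMSO livers. WT livers were the lowest of all groups with DMSO and the highest with APAP, and KO libraries lay between them. TTK rose by 5.53 in WT livers, against 0.95 in KO livers (adjusted p = 0.293), a difference of -4.58 ± 0.84, adjusted p = 0.0094. The DMSO levels rest on few reads, with 7 of TTK over the WT group and 34 over the KO group. The call held with every single library left out, and in the fit to all 32 libraries its adjusted p was 0.0916.

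STMN1 (ENSDARG00000004169), which destabilises microtubules and is made in dividing cells, had 18.7, 28.4, 19.3 and 35.4 CPM in KO APAP livers, against 18.1, 14.8, 9.18 and 16.2 in KO DMSO livers, and 66.5, 54.9, 74.6 and 42.2 in WT APAP livers, against 5.29, 8.42, 9.76 and 8.48 in WT DMSO livers. Both genotypes were above their DMSO libraries without overlap, but the KO response of 0.80 had an adjusted p of 0.0776, beside 2.90 in WT livers. The difference was -2.10 ± 0.42, adjusted p = 0.0237. KPNA2 (ENSDARG00000038066), an importin that carries proteins into the nucleus, had 48.3, 33.9, 31.7 and 49.5 CPM in KO APAP livers, against 30.1, 18.9, 3.77 and 16 in KO DMSO livers, and 96.8, 97.4, 59.17 and 65.3 in WT APAP livers, against 3.81, 6.04, 7.14 and 5.12 in WT DMSO livers. It rose in both genotypes, by 1.24 in KO and 3.85 in WT livers, and KO exceeded WT under DMSO (1.64 ± 0.40, adjusted p = 0.0293); the difference in response was -2.60 ± 0.55, adjusted p = 0.032. With 1 library left out, the adjusted p passed 0.05 in 9 of 16 cases for STMN1, up to 0.0722 without KO DMSO replicate 1, and in 10 of 16 for KPNA2, up to 0.104 without the same library. With all 32 libraries it was 0.155 for STMN1 and 0.407 for KPNA2.

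In the mitosis list, 42 genes were tested, with a median difference of -1.31, against -0.03 over all tested genes, and 38 negative values. TTK alone passed the test for a difference. In KO livers 9 rose and none fell with APAP, and in WT livers 25 rose and none fell. Under APAP the median of KO against WT was -0.98, with 1 gene called lower in KO. Under DMSO that median was 0.50, with 31 positive values. In the DNA replication list, 46 genes were tested, with a median difference of -1.50, 42 negative values and no call. There, 6 rose in KO livers, and 15 rose and 1 fell in WT livers. The replication median of KO against WT was -0.89 under APAP, with 2 genes called lower in KO. Under DMSO it was 0.49, with 35 positive values.

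CDK1, the kinase that starts mitosis, had 4.67, 10.3, 4.56 and 4.85 CPM in KO APAP livers, against 2.5, 3.39, 0.706 and 1.9 in KO DMSO livers, and 21.9, 7.72, 14.3 and 8.82 in WT APAP livers, against 0, 0.366, 0.174 and 1.24 in WT DMSO livers. Its response was 1.49 in KO (adjusted p = 0.112) and 4.83 in WT livers (adjusted p = 6.34e-05), and the difference of -3.34 had an adjusted p of 0.153. CDK1 was called by DESeq2 (adjusted p = 0.0191), without a filter (0.029) and without WT DMSO replicate 4 (0.0418). PCNA, the sliding clamp of DNA polymerase, rose in both genotypes, by 1.82 in KO and 2.99 in WT livers, with a difference of -1.16 (adjusted p = 0.531). The replication gene with the smallest p, pclaf, which binds PCNA, averaged 34.4 ± 13 CPM in KO APAP livers, against 10.6 ± 6.17 in KO DMSO livers, and 54 ± 17.8 in WT APAP livers, against 1.68 ± 1.48 in WT DMSO livers (SD, n = 4 each), a difference of -3.31 ± 0.76, adjusted p = 0.061. Its KO DMSO level exceeded that of WT DMSO (adjusted p = 0.0151).

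The p53 target genes rps27l and CCNG1, and RRAD, rose in KO livers with a more positive response than in WT livers. The gene rps27l (ENSDARG00000100513), a ribosomal protein paralog that p53 induces in human cells, had 1284, 1401, 1098 and 869.99 CPM in KO APAP livers, against 201, 155, 306 and 229.52 in KO DMSO livers, and 228, 172, 254 and 123 in WT APAP livers, against 231, 147, 209.94 and 166 in WT DMSO livers. All KO APAP libraries were above all others, and the other 3 groups overlapped. It rose by 2.38 in KO livers, against 0.04 in WT livers (adjusted p = 0.956), a difference of 2.34 ± 0.37, adjusted p = 0.00188. CCNG1 (ENSDARG00000076667), cyclin G1, had 464, 513, 621 and 474 CPM in KO APAP livers, against 89.2, 68, 95.8 and 112 in KO DMSO livers, and 333, 243, 305 and 248 in WT APAP livers, against 137, 173, 104 and 144 in WT DMSO livers. In both genotypes it rose without overlap, by 2.50 in KO and 1.02 in WT livers, and the difference was 1.49 ± 0.32, adjusted p = 0.0382. That call was lost in 12 of 16 cases with 1 library left out, with an adjusted p up to 0.126 without KO DMSO replicate 2, and with all 32 libraries (0.155), whereas that of rps27l was kept in all 16.

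RRAD (ENSDARG00000052011), a small GTPase that p53 induces in human cells, had 119.86, 84.9, 32 and 12.1 CPM in KO APAP livers, against 0, 1.25, 1.18 and 0.238 in KO DMSO livers, and 9.93, 16, 12.9 and 3.15 in WT APAP livers, against 4.14, 4.76, 2.26 and 0.53 in WT DMSO livers. KO APAP libraries spread from 12.1 to 120 CPM and overlapped those of WT APAP. The difference was 4.64 ± 1.01, adjusted p = 0.0455, with 6.48 in KO and 1.84 in WT livers (adjusted p = 0.0702), and it was lost in 10 of 16 cases with 1 library left out, up to an adjusted p of 0.108 without WT DMSO replicate 1, and with all 32 libraries (0.284). Under DMSO, KO against WT was -2.08 for RRAD (adjusted p = 0.211) and -0.61 for CCNG1 (adjusted p = 0.173). Of the p53 list, 29 genes were tested with a median difference of 0.46. The median of KO against WT was 0.19 under APAP (15 positive, 14 negative) and -0.30 under DMSO (19 negative). Besides rps27l and CCNG1 no member passed, and 6 rose and 3 fell in KO livers, while 4 rose and 1 fell in WT livers. Over all tested genes 6.14% rose and 7.93% fell in KO livers, and 4.9% rose and 5.79% fell in WT livers. BTG2, which slows proliferation, rose in both, by 2.83 in KO and 1.68 in WT livers.

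The gene atf5b and the tRNA synthetase gene AARS1, from a list of genes that cells use when amino acids run short, rose in KO livers, while in WT livers atf5b fell and AARS1 had no called change. The gene atf5b (ENSDARG00000077785) codes for a stress-induced transcription factor of the ATF family. In the RefSeq annotation (GRCz12tu) atf5b, NDRG2 and mto1 each overlap a neighbouring gene, from whose reads theirs cannot be told apart without the strand setting. The same holds for prdx1, PCNA, SQSTM1 and nfe2l2b. Both prdx1 and PRDX1 matched the same RefSeq gene, so that match is ambiguous. CARTPT, RBP2, NDRG1, PDAP1, STMN1, HSP90AA1, KEAP1, NFE2L2 and HMOX1 had no match, so their overlap is not known here. The gene atf5b had 64.9, 37.6, 24.1 and 17.4 CPM in KO APAP livers, against 14.8, 8.92, 14.8 and 10 in KO DMSO livers, and 0.871, 1.79, 4.81 and 1.47 in WT APAP livers, against 17.4, 6.77, 15.7 and 7.95 in WT DMSO livers. KO APAP libraries were above those of KO DMSO, and WT APAP libraries were below those of WT DMSO, both without overlap. It rose in KO livers (1.57 ± 0.44, adjusted p = 0.0167) and fell in WT livers (-2.39 ± 0.49, adjusted p = 0.00183), a difference of 3.96 ± 0.66, adjusted p = 0.00302. AARS1 (ENSDARG00000069142), which charges tRNA with alanine, had 172, 119, 146 and 126 CPM in KO APAP livers, against 45.3, 39.4, 77 and 52.1 in KO DMSO livers, and 45.8, 62.1, 43.1 and 37.8 in WT APAP livers, against 55.4, 58.5, 59.24 and 55.8 in WT DMSO livers. Each KO APAP library was above all others, with a response of 1.4 in KO, against -0.28 in WT livers (adjusted p = 0.57), a difference of 1.68 ± 0.35, adjusted p = 0.028. AARS1 lost its call in 9 of 16 cases with 1 library left out, up to an adjusted p of 0.0894 without KO DMSO replicate 2, and had an adjusted p of 1.00 in the fit to all 32 libraries.

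The list of tRNA synthetases and amino acid stress genes had 39 tested members with a median difference of 0.77, and 34 positive values. Both atf5b and AARS1 passed. In KO livers 18 rose and none fell with APAP, and in WT livers 3 rose and 1 fell. Under APAP 10 were higher in KO livers and none was lower. The shares over all tested genes were 6.14% up and 7.93% down in KO livers and 4.9% up and 5.79% down in WT livers. Under APAP, 2.66% of all tested genes were higher in KO livers. The synthetases with the next smallest p were TARS1 and EPRS1. TARS1, for threonine, averaged 107 ± 39.5 CPM in KO APAP livers, against 21.1 ± 5.96 in KO DMSO livers, and 49.3 ± 6.62 in WT APAP livers, against 31.6 ± 9.99 in WT DMSO livers (SD, n = 4 each), a difference of 1.69 ± 0.42, adjusted p = 0.0869. EPRS1, for glutamate and proline, averaged 163 ± 38.4 CPM in KO APAP livers, against 32.6 ± 8.61 in KO DMSO livers, and 49.3 ± 2.85 in WT APAP livers, against 25.8 ± 7.43 in WT DMSO livers, a difference of 1.39 ± 0.37, adjusted p = 0.139.

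Chaperone genes had mostly positive differences, and none passed the test in the filtered fit. Of the heat shock and chaperone list, 37 genes were tested with a median difference of 0.76, 31 positive values and no call; 12 rose and 1 fell in KO livers, while 1 rose and 2 fell in WT livers. HSPA9, the Hsp70 of mitochondria, averaged 138 ± 15.4 CPM in KO APAP livers, against 63.7 ± 4.74 in KO DMSO livers, and 33.9 ± 10.2 in WT APAP livers, against 43.5 ± 13.2 in WT DMSO livers (SD, n = 4 each), a difference of 1.47 ± 0.36, adjusted p = 0.0869. HSP90AA1, a cytosolic Hsp90, had 289, 164, 273 and 87.3 CPM in KO APAP livers, against 13.1, 17.5, 22.6 and 6.67 in KO DMSO livers, and 25.9, 60.5, 50.4 and 38.6 in WT APAP livers, against 70.15, 6.95, 8.36 and 12.5 in WT DMSO livers. No library of another group reached those of KO APAP, and it rose in KO livers (3.76 ± 0.59, adjusted p = 7.20e-05), beside 0.84 in WT livers (adjusted p = 0.406). The difference of 2.93 had an adjusted p of 0.141. HSP90AA1 was called without a filter on low counts (adjusted p = 1.57e-08), and without WT DMSO replicate 1 its difference was 1.5 (adjusted p = 0.444). A second Hsp90 gene, hsp90aa1.1, had a KO response of 1.49 (adjusted p = 0.158) and a difference of 1.68 (adjusted p = 0.651). Its libraries overlapped in every pair of groups.

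The inducible Hsp70 genes had few reads without APAP in either genotype. In KO livers hsp70.3 had 150 reads with APAP and 0 with DMSO, at least 46.5-fold higher with a floor of 3 reads over the group. WT livers held 98 reads of hsp70.3 with APAP and 11 with DMSO, and the KO APAP libraries (0.606 to 15.2 CPM) overlapped those of WT APAP (0.174 to 8.61 CPM). All WT DMSO reads of hsp70.3 came from replicate 1 (1.82 CPM), the library in which HSP90AA1 was also high (70.15 CPM). For hsp70l, KO livers held 114 reads with APAP and 1 with DMSO, a ratio of 106 with a 95% counting interval of 18.7 to 4225, and WT livers held 27 with APAP and 0 with DMSO, at least 9.32-fold higher. The differences of both genes had adjusted p of 0.559 and 0.936. These bounds and intervals cover counting error only.

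In the proteasome list, 26 of 46 tested genes rose in KO livers and 15 in WT livers, and none fell in either. Under APAP 11 were higher in KO livers, with a median of KO against WT of 0.57. Under DMSO that median was 0.26, with 33 positive values and 2 genes called higher in KO. The median difference in response was 0.38 with no call. PSMD14, a deubiquitinase of the proteasome lid, had the smallest p, at 1.52 ± 0.46, adjusted p = 0.22. Ribosome biogenesis genes (63 tested) had a median difference of 0.62 with 53 positive values, but 1 rose and 1 fell in KO livers and 3 fell in WT livers. Stress-induced transcription factors (33 tested) had a median of 0.58. The median of KO against WT in that list was -0.17 under APAP (19 negative values) and -0.39 under DMSO (26 negative values). In that list 14 rose and 2 fell in KO livers, against 7 up and 2 down in WT livers, and atf5b alone passed the test for a difference.

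A chaperone gene of the endoplasmic reticulum had a more negative response in KO livers. The gene calr3a (ENSDARG00000103979), a calreticulin that binds calcium and assists glycoprotein folding, had 81.8, 63.5, 61.2 and 53 CPM in KO APAP livers, against 269.89, 263, 171 and 165 in KO DMSO livers, and 154, 139.97, 164 and 149 in WT APAP livers, against 188, 156, 148 and 145 in WT DMSO livers. The 4 KO APAP libraries were below all others. It fell in KO livers (-1.74 ± 0.23, adjusted p = 8.72e-06), against -0.07 in WT livers, a difference of -1.67 ± 0.32, adjusted p = 0.0136, and it lost its call without KO DMSO replicate 1 (adjusted p = 0.0517), without KO DMSO replicate 2 and with all 32 libraries (0.0644). The list of endoplasmic reticulum stress genes (31 tested) had a median difference of -0.14 and no call. In it, 6 were up and 6 down in KO livers, and 1 was up and 1 down in WT livers. The shares over all tested genes were 6.14% up and 7.93% down in KO livers and 4.9% up and 5.79% down in WT livers. Among the folding genes, named after their values were seen, PDIA4 had responses of -2.47 in KO and 0.89 in WT livers and a difference of -3.35 (adjusted p = 0.0842). HSP90B1 had -1.46 in KO and 0.43 in WT livers (difference -1.90, adjusted p = 0.153), and CALR had -2.10 in KO and -0.31 in WT livers (difference -1.79, adjusted p = 0.2). HSPA5, the main chaperone of this compartment, had 1.23 in KO and 0.90 in WT livers (difference 0.33, adjusted p = 0.91).

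**Figure D3:**
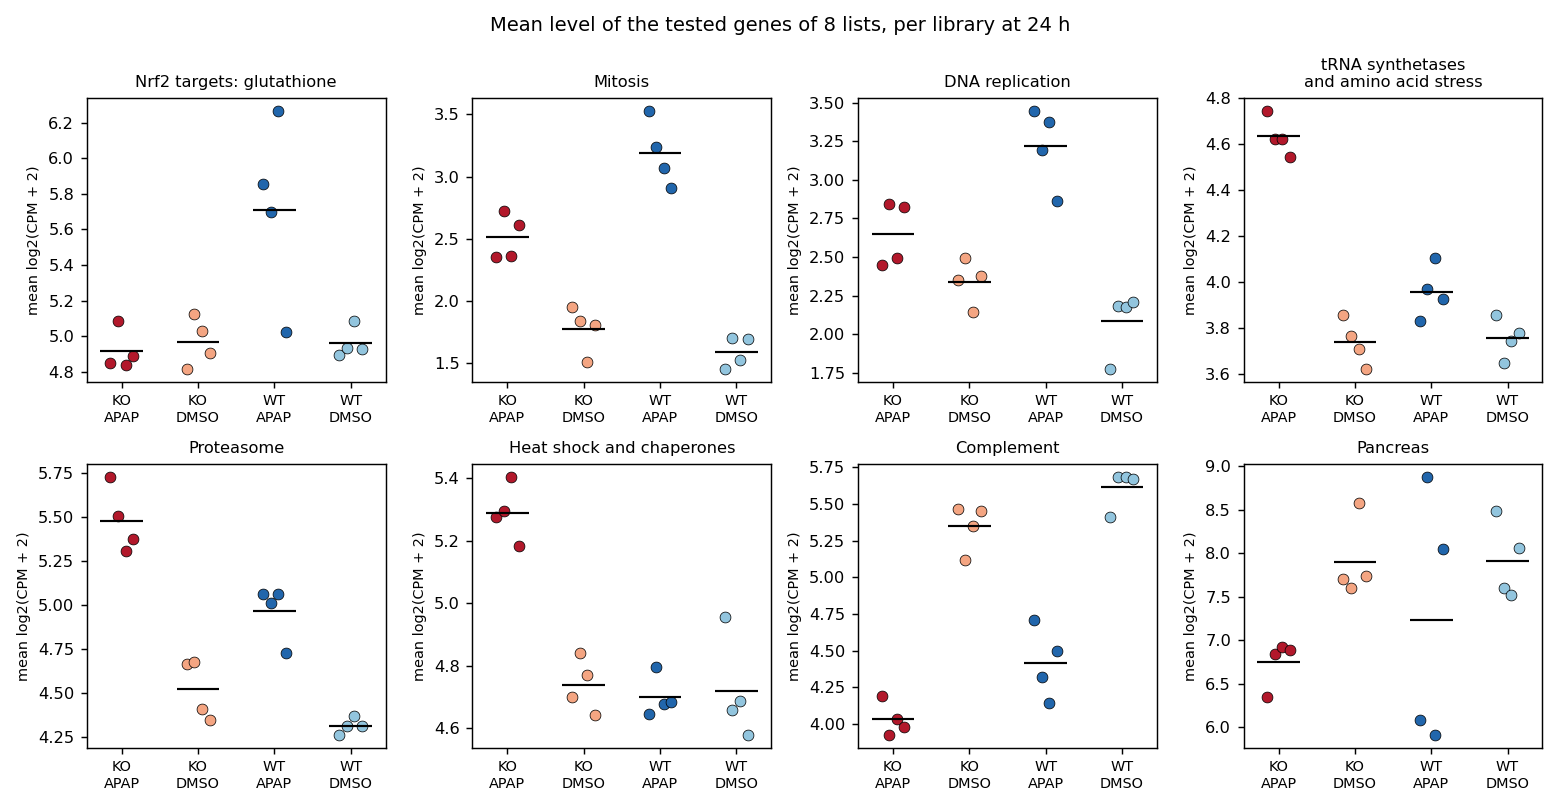
Mean log2(CPM + 2) of the tested genes of 8 lists, 1 point per library at 24 h in KO APAP, KO DMSO, WT APAP and WT DMSO livers, with lines at group means. The mean of KO APAP livers is below that of WT APAP livers for the glutathione, mitosis, DNA replication and complement lists and above it for the tRNA synthetase, proteasome and chaperone lists; the pancreas panel shows the wide spread of WT APAP livers.

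Of the other called genes, agt belongs to the plasma protein list and cyp2ad2 to the xenobiotic list, and COG2, afp4, tm6sf2a, RBP2, SELENBP1 and mao to none. The response in KO livers was more positive for agt, COG2, afp4 and tm6sf2a, and more negative for RBP2, cyp2ad2, SELENBP1 and mao. The gene agt (ENSDARG00000016412) codes for angiotensinogen, the precursor of angiotensin that the liver secretes. It had 1610.2, 1236, 1343 and 1331 CPM in KO APAP livers, against 154, 122, 167 and 167 in KO DMSO livers, and 414, 313, 408 and 376 in WT APAP livers, against 129.88, 179, 215 and 176 in WT DMSO livers. Both genotypes rose without overlap, by 3.18 in KO and 1.11 in WT livers, a difference of 2.07 ± 0.30, adjusted p = 9.12e-04. COG2 (ENSDARG00000004037), a subunit of a Golgi tethering complex, had 295, 196, 157 and 211 CPM in KO APAP livers, against 31, 27.5, 27.8 and 38.3 in KO DMSO livers, and 48.2, 50.2, 47.2 and 61.5 in WT APAP livers, against 58.2, 29.5, 42.9 and 41 in WT DMSO livers. It rose in KO livers (2.79), against 0.27 in WT livers (adjusted p = 0.594), a difference of 2.51 ± 0.36, adjusted p = 9.12e-04. Both genes overlap each other in the RefSeq annotation (GRCz12tu), and without a stated strand setting their reads cannot be told apart.

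The gene afp4 (ENSDARG00000095863), of the type IV antifreeze proteins that fish secrete, was abundant in all groups. It had 13714, 9371, 8917 and 11302 CPM in KO APAP livers, against 1863, 2277, 1582 and 1686 in KO DMSO livers, and 4296, 4573, 2712 and 3085 in WT APAP livers, against 1458, 2542, 1553 and 2793 in WT DMSO livers. Its KO APAP libraries exceeded all others. The responses were 2.55 in KO and 0.81 in WT livers, a difference of 1.73 ± 0.35, adjusted p = 0.0237 that was lost in 6 of 16 cases with 1 library left out, up to an adjusted p of 0.0711 without WT DMSO replicate 2, and with all 32 libraries (0.0894). The gene tm6sf2a (ENSDARG00000105208), whose human counterpart helps load lipid onto lipoproteins, had 149, 72.3, 65.1 and 57.4 CPM in KO APAP livers, against 9.82, 11.2, 5.65 and 10 in KO DMSO livers, and 18.8, 13.6, 9.94 and 12.2 in WT APAP livers, against 13.2, 7.68, 15 and 12.7 in WT DMSO livers. All KO APAP libraries were above all others, and the difference was 3.05 ± 0.47, adjusted p = 0.00146, with 3.22 in KO and 0.17 in WT livers.

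RBP2 (ENSDARG00000093774), a cellular retinol-binding protein, had 282, 359, 566 and 309.67 CPM in KO APAP livers, against 4982, 5662, 5935 and 5098 in KO DMSO livers, and 2105, 1938, 1721 and 3167 in WT APAP livers, against 3684, 4584, 5962 and 8621 in WT DMSO livers. Both genotypes fell without overlap, and KO APAP libraries were the lowest. The responses were -3.84 in KO and -1.36 in WT livers, a difference of -2.48 ± 0.38, adjusted p = 0.00146, with an adjusted p of 0.0591 in the fit to all 32 libraries. The cytochrome P450 gene cyp2ad2 (ENSDARG00000021172) had 20.8, 28.4, 22.6 and 51.5 CPM in KO APAP livers, against 393, 354, 429 and 405 in KO DMSO livers, and 279.5, 101, 128 and 243 in WT APAP livers, against 324, 627, 489 and 466 in WT DMSO livers. It fell in both genotypes, with responses of -3.68 in KO and -1.34 in WT livers, a difference of -2.34 ± 0.45, adjusted p = 0.0136, with an adjusted p of 0.155 in the fit to all 32 libraries. Its overlapping neighbour cyp2v1 had a difference of 1.15 (adjusted p = 0.726).

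SELENBP1 (ENSDARG00000024717), which oxidises methanethiol, had 7.78, 11.101, 7.88 and 10.7 CPM in KO APAP livers, against 77.2, 96, 60.04 and 76.4 in KO DMSO livers, and 46.7, 26.9, 48.1 and 16.8 in WT APAP livers, against 33.9, 94.4, 59.4 and 62.2 in WT DMSO livers. It fell in KO livers (-3.05) and had -0.85 in WT livers (adjusted p = 0.0991). The difference of -2.2 ± 0.46, adjusted p = 0.032 was lost in 9 of 16 cases with 1 library left out, up to 0.0751 without KO DMSO replicate 2, and in the fit to all 32 libraries (0.742). The gene mao (ENSDARG00000023712), monoamine oxidase, which breaks down amine neurotransmitters and dietary amines, had 101, 118, 109 and 117 CPM in KO APAP livers, against 189.95, 187, 175 and 193 in KO DMSO livers, and 368, 298, 345 and 224 in WT APAP livers, against 127, 134, 132 and 190.09 in WT DMSO livers. It fell in KO livers (-0.75 ± 0.22, adjusted p = 0.0194) and rose in WT livers (1.08 ± 0.22, adjusted p = 0.00145), without overlap in either, a difference of -1.83 ± 0.31, adjusted p = 0.00302, which was not called in the fit to all 32 libraries (adjusted p = 0.449). Together with atf5b it was the only gene called in both genotypes in opposite directions.

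The lists of liver function mostly fell in both genotypes. Of 66 tested plasma protein genes, 5 rose and 27 fell in KO livers, and 4 rose and 27 fell in WT livers; the median difference was -0.04 and agt alone passed. F9, coagulation factor IX, came next at 2.34 ± 0.52, adjusted p = 0.0505, having fallen in WT livers (-1.86) beside 0.48 in KO livers. Of 61 xenobiotic genes, 1 rose and 24 fell in KO livers and 3 rose and 20 fell in WT livers, with a median difference of -0.23 and cyp2ad2 the only call. Of 49 genes of fatty acid oxidation, 24 fell in KO livers, and 1 rose and 18 fell in WT livers, with a median difference of -0.12. CYP7A1, which makes the first step from cholesterol to bile acids, fell by 5.75 in KO and by 5.18 in WT livers on the log2 scale, and its difference of -0.56 had an adjusted p of 0.931.

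Complement genes had a median difference of -0.48 over 30 tested genes, 24 of them negative, with no call; 1 rose and 19 fell in KO livers and 16 fell in WT livers. Among them c8b, of the membrane attack complex, fell in both, with responses of -3.67 in KO and -2.25 in WT livers. Cholesterol and fatty acid synthesis genes had a median of -0.49 over 30. FDPS, which makes farnesyl diphosphate for cholesterol, rose in WT livers (3.13) beside 0.18 in KO livers, a difference of -2.95 ± 0.69, adjusted p = 0.0653. For amino acid catabolism (69 tested) the median was 0.18, for glucose metabolism (52) -0.02, for bile acids (18) -0.24, for the respiratory chain (85) -0.06, for lysosome and autophagy (70) 0.18 and for the acute phase (26) -0.02, none with a call.

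The Ndrg family, named for genes that N-Myc represses, held a pair with opposite differences. NDRG1 (ENSDARG00000032849), which many cells induce under stress such as low oxygen, had 249, 200.2, 169.93 and 103 CPM in KO APAP livers, against 55.3, 68, 18.1 and 28.8 in KO DMSO livers, and 10.4, 12.7, 20.9 and 11.8 in WT APAP livers, against 12.6, 34.8, 23.2 and 37.5 in WT DMSO livers. KO APAP libraries were above all others. It rose in KO livers (2.08), against -0.95 in WT livers (adjusted p = 0.134), a difference of 3.03 ± 0.54, adjusted p = 0.00758. NDRG2 (ENSDARG00000011170) had 19.5, 37, 49.4 and 49.7 CPM in KO APAP livers, against 208, 193, 189.53 and 226 in KO DMSO livers, and 211, 96.2, 185 and 121 in WT APAP livers, against 103, 185, 209.59 and 126 in WT DMSO livers. The lowest 4 libraries were those of KO APAP, with -2.39 in KO and -0.03 in WT livers, a difference of -2.37 ± 0.43, adjusted p = 0.00758. The other two tested members had values of 0.09 (ndrg3a) and -0.01 (NDRG3), and a second gene with the symbol NDRG1 (ENSDARG00000010420) had 16 reads at 24 h and was not tested.

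CARTPT (ENSDARG00000035852), the precursor of a neuropeptide of feeding and stress, had 35.8, 72.8, 35.5 and 36.4 CPM in KO APAP livers, against 0, 0.178, 0 and 0 in KO DMSO livers, and 4.35, 9.51, 17.6 and 2.94 in WT APAP livers, against 1.32, 2.01, 5.05 and 0.707 in WT DMSO livers. KO livers held 932 reads with APAP and 1 with DMSO, a ratio of 867 with a 95% counting interval of 155 to 34282, and KO DMSO lay below WT DMSO without overlap. The fitted difference of 7.32 (adjusted p = 0.00139) depends on the prior count, because 3 of 4 KO DMSO libraries were at 0. WT APAP and WT DMSO libraries overlapped, with a response of 1.92 (adjusted p = 0.0215).

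PDAP1 (ENSDARG00000002967), whose product binds platelet-derived growth factor, had 98.9, 75.6, 57.1 and 41 CPM in KO APAP livers, against 26, 21.2, 33.2 and 31.2 in KO DMSO livers, and 24.7, 36.1, 17.2 and 18.5 in WT APAP livers, against 54.4, 41.5, 42.5 and 38.5 in WT DMSO livers. KO APAP libraries were above all KO DMSO libraries and WT APAP libraries were below all WT DMSO libraries, with responses of 1.29 (adjusted p = 0.00321) in KO and -0.87 (adjusted p = 0.057) in WT livers. The difference was 2.16 ± 0.41, adjusted p = 0.0136, and its adjusted p was 0.0502 without KO DMSO replicate 2 and 0.246 with all 32 libraries. The gene mto1 (ENSDARG00000055679), which modifies mitochondrial tRNA, had 7.61, 6.04, 9.54 and 11.5 CPM in KO APAP livers, against 8.48, 6.42, 6.83 and 4.52 in KO DMSO livers, and 17.2, 24.9, 51.7 and 55.2 in WT APAP livers, against 5.79, 4.57, 1.05 and 3.18 in WT DMSO livers. WT APAP libraries were above all others, with 3.34 in WT and 0.40 in KO livers. The difference of -2.95 ± 0.61, adjusted p = 0.0292 was lost in 9 of 16 cases with 1 library left out, up to an adjusted p of 0.077 without KO DMSO replicate 1, and with all 32 libraries (0.224).

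**Figure D4:**
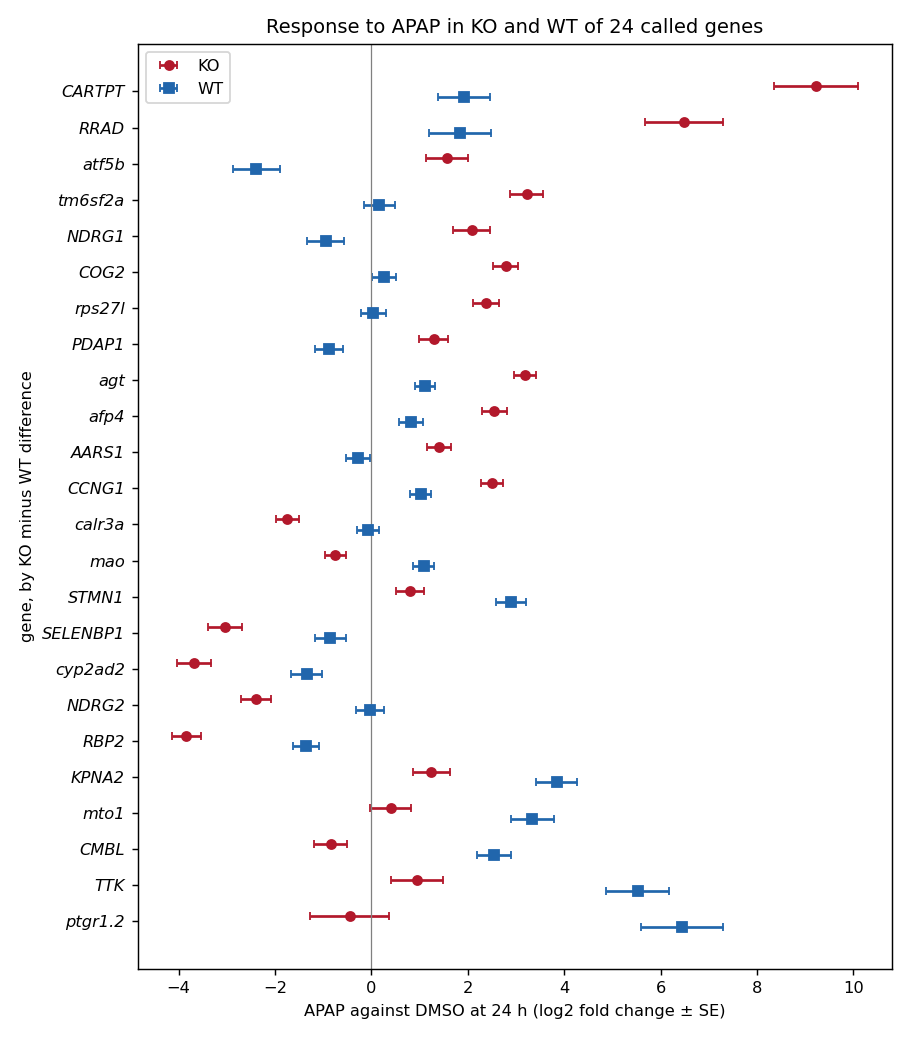
Log2 fold change of APAP against DMSO at 24 h with its SE in KO livers (red circles) and WT livers (blue squares) for 24 of the 25 genes whose response differed, ordered by the KO minus WT difference. Bars do not overlap, which follows from choosing the genes on this difference. The genes atf5b, PDAP1, NDRG1 and AARS1 lie on opposite sides of 0 in the 2 genotypes, with KO above, and mao, CMBL and ptgr1.2 with KO below.

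Markers of other cells moved with the comparison in part. All 33 tested pancreas genes had a negative difference (median -1.10) and none passed; 10 fell in KO livers and none in WT livers. The pancreas factor PTF1A was at 0 in KO APAP livers, BHLHA15 in both KO groups and the insulin gene insb in both WT groups. Another gene of the list, c6ast1, was at 0 in KO APAP livers and in both WT groups. With the pancreas share as a covariate, all 25 genes stayed called, among 39 calls in all. Without both WT APAP replicates 2 and 3 there were 33 calls, of which 21 were among the 25. The share was taken from the same counts and differed between KO groups (2.63% to 3.58% with APAP, 5.21% to 8.66% with DMSO). WT APAP replicates 1 and 4, which remained, held 1.86% and 7.45%. Neither fit can therefore separate pancreas tissue from the comparison, and its part in the differences was not tested.

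Skeletal muscle genes (51 tested) had a median difference of -0.66 and no call, with summed shares of 0.843% to 1.17% in KO APAP livers, against 0.562% to 0.956% in KO DMSO livers, and 0.939% to 1.83% in WT APAP livers, against 0.665% to 0.953% in WT DMSO livers. Intestine genes (29 tested) had a median of -0.49 and epidermis genes (29) of -0.32. Medians were 0.28 for red blood cells (13 tested), -0.42 for stellate and mesenchymal cells (33), 0.30 for endothelium (16) and 0.09 for biliary cells (18), and none of these lists held a call. Their part in the differences was not tested. Of 37 macrophage and 17 neutrophil genes in the table, 5 and 4 had enough reads to be tested.

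The genotype difference had the same sign at 12 h for all 25 genes. These values come from 1 fit to all 32 libraries (11384 genes tested), in which 8 genes (0.0703%) had a called difference at 12 h, 3 more positive (0.0264%) and 5 more negative (0.0439%) in KO. The median 12 h difference over all tested genes was -0.22. The common biological coefficient of variation, a measure of spread between libraries, was 0.743 in this fit, against 0.499 in the 24 h fit. KO APAP 12 h replicate 2 had reads in only 4129 genes, against 11340 to 12192 in the other libraries of its group. KO DMSO 12 h replicate 3 (9703) and WT DMSO 12 h replicate 2 (8815) were also low. Of the 25, 3 were called at 12 h, including agt at 2.50 ± 0.39, adjusted p = 4.07e-04 and NDRG1 at 5.05 ± 0.57, adjusted p = 6.66e-07. No gene passed the test of the 24 h difference against the 12 h difference in edgeR (0%), where 390 had an unadjusted p under 0.05, and DESeq2 called 3. The 25 genes were chosen on their 24 h values, so that choice favours larger values at 24 h than at 12 h. Among the 8 of the 25 with an unadjusted p under 0.05 were TTK (-0.94 at 12 h), CMBL (-1.0), mto1 (-0.12) and rps27l (0.74), farther from 0 at 24 h, and NDRG1 (5.05), nearer to 0 at 24 h. The KO APAP libraries at 12 h were widely spread for CMBL (82.4 ± 68.7 CPM) and mto1 (20.9 ± 18.4 CPM, SD, n = 4 each).

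**Figure D5:**
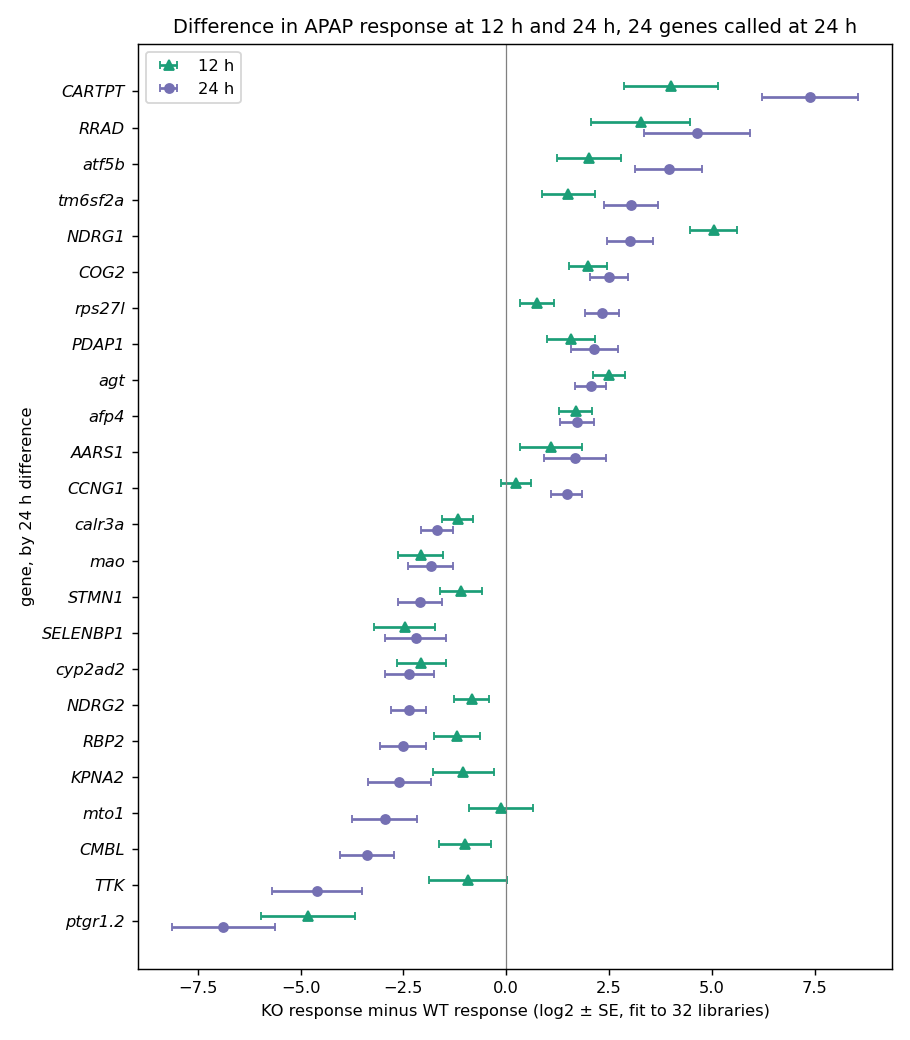
KO response minus WT response (log2 with SE, from the fit to all 32 libraries) at 12 h (green triangles) and 24 h (purple circles) for 24 of the 25 genes called at 24 h. All 24 pairs lie on one side of 0, mto1 and CCNG1 are near 0 at 12 h, and NDRG1 is farther from 0 at 12 h than at 24 h.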

How the data were processed

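RNA from pools of 20 larval zebrafish livers was sequenced, and the deposited table holds raw counts, which are whole numbers of reads that the authors assigned to each Ensembl gene. Per the submitters' processing notes the tools were bcl2fastq, Trim Galore, HISAT2 and HTSeq and the build GRCz11; versions, annotation release and strand setting are not given in the sources used here. Lines of the counter that name no gene were left out of totals and tests; unaligned reads were 12.9% to 18.7% and reads outside genes 3.60% to 7.03% of each 24 h library. Libraries of 1 group never agreed within counting noise (lowest chi-square per degree of freedom 10.7).

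Genes kept by filterByExpr (9247 of 32519) were scaled by TMM and fitted with 1 mean per group to the 16 libraries at 24 h in edgeR 4.0.16 under R 4.3.3 (12 residual degrees of freedom, common biological coefficient of variation 0.499). Two-sided quasi-likelihood F-tests were adjusted by Benjamini-Hochberg over all tested genes and called under 0.05. The prior count of fold changes was 0.125, and each SE was computed as |log2 fold change| / sqrt(F). Times were compared in 1 fit to all 32 libraries. Levels are TMM-scaled CPM (reads relative to library size), and list means are means of log2(CPM + 2). No set test was made: lists are described by counts and medians beside all tested genes. Named were called genes with a symbol (mean log2 CPM over 16 libraries not under 2, up to 12 a direction by fold change), up to 4 called members a list (which added TTK) and 21 fixed symbols; list members that were not called were picked after their values were seen. The genes and the 35 lists were chosen with earlier results of these data known. Gene symbols were assigned to the Ensembl genes from a separate reference of gene names. Of 1548 listed symbols, 1275 matched as written and 96 once a copy suffix was dropped. The analysis was tested on simulated data. Alternatives were DESeq2 1.42.0, other scaling, no filter, all 32 libraries, a replicate block and each library left out; a pancreas covariate and the joint omission of WT APAP replicates 2 and 3 were chosen after seeing the data. Promoter sequences were not used here. Of the 25 called genes, 24 are described and 1 is not reported here.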

Additional observations from a re-analysis of the deposited data

Results flagged for a closer look

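The response to APAP differed between KO and WT livers for 25 genes, by edgeR's test of the difference itself. As KO minus WT on the log2 scale, the more positive ones were CARTPT (7.32), RRAD (4.64), atf5b (3.96), tm6sf2a (3.05), NDRG1 (3.03), COG2 (2.51), rps27l (2.34), PDAP1 (2.16), agt (2.07), afp4 (1.73), AARS1 (1.68) and CCNG1 (1.49). The more negative ones given here, 12 of 13, were ptgr1.2 (-6.90), TTK (-4.58), CMBL (-3.39), mto1 (-2.95), KPNA2 (-2.60), RBP2 (-2.48), NDRG2 (-2.37), cyp2ad2 (-2.34), SELENBP1 (-2.2), STMN1 (-2.10), mao (-1.83) and calr3a (-1.67).

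In 13 of 208 groups of 4 libraries, 1 library lay far from the other 3 by Dixon's test at its 95% limit. For normally distributed values chance gives about 1 in 20 groups, and CPM need not be so distributed. The 208 include groups with at least 3 libraries at 0, which could not be flagged. In KO APAP livers these were CARTPT in replicate 2 (72.8 CPM), tm6sf2a in replicate 1 (149 CPM), CDK1 in replicate 2 (10.3 CPM) and GSR in replicate 4 (79.4 CPM). The pancreas share (2.63%) and the muscle share (0.843%) of KO APAP replicate 1 were also low for that group. In KO DMSO livers nfe2l2b stood out in replicate 4 (6.19 CPM), and in replicate 2 the intestine share (4.34%) and the red blood cell share (0.313%) were high. In WT DMSO livers CMBL in replicate 3 (43.2 CPM), mao in replicate 4 (190 CPM), HSP90AA1 in replicate 1 (70.15 CPM) and keap1a in replicate 2 (48.3 CPM) were high.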

How the results depend on the processing

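None of the 25 genes changed direction in any of 23 alternatives, and 11 were called in all of them (including agt, atf5b, CARTPT, CMBL, COG2, NDRG1, NDRG2, ptgr1.2, rps27l and tm6sf2a). All 25 were called by DESeq2, with relative log expression scaling, without a filter on low counts and with the pancreas covariate, 11 in the fit to 32 libraries, 21 without both WT APAP replicates 2 and 3, and 323 of 400 times with 1 library left out. The fit to 32 libraries had a common biological coefficient of variation of 0.743, against 0.499 in the 24 h fit. The cause of the lost calls was not tested.

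In the fit without a filter the prior degrees of freedom were infinite, against 11.9 with it, so every gene took its spread from the trend over all genes. HSP90AA1 and GSR were called in that fit alone, and CDK1 in it, by DESeq2 and without WT DMSO replicate 4.

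The counts of called genes moved most with the tool, the filter and the libraries in the fit. For the difference in response (25) they were 100 by DESeq2, 141 without a filter, 12 with all 32 libraries, 39 with the pancreas covariate and 16 to 48 with 1 library left out. With all 32 libraries the KO response (1301) had 575 calls, the WT response (988) 364, KO against WT under APAP (493) 136 and under DMSO (186) 32. Without both WT APAP replicates 2 and 3 the WT response had 424. KO against WT under APAP had 784 by DESeq2, and under DMSO 435 by DESeq2 and 330 without a filter. With 1 library left out, KO against WT under DMSO ran from 85 to 241, under APAP from 343 to 498, the KO response from 1067 to 1353 and the WT response from 755 to 1095. The 12 h difference (8) had 59 by DESeq2, 52 without a filter, 14 without the 3 libraries with fewest genes and 3 to 10 with 1 library left out. The 24 h against 12 h difference (0) had 3 by DESeq2 and 8 without a filter.

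Over the fits with 1 library left out, differences that were not called ranged across 0 for SQSTM1 (-0.011 to 0.63), CYP7A1 (-1.14 to 0.80), NQO1 (-0.10 to 0.80), HMOX1 (-0.40 to 1.81), nfe2l2b (-1.26 to 0.35), PRDX1 (-0.26 to 0.061), GCLM (-0.70 to 0.59) and GCLC (-0.24 to 0.10). With the replicate number as a block the difference had 26 calls, 22 of them among the 25. Correlations of deviations in the 24 same-numbered pairs ran from -0.103 to 0.185, with 3 over 0.1. The pairs of KO APAP with KO DMSO had 0.069 to 0.101. Of 48 best matches, each among 4 libraries, 17 had the same number. Pairing by replicate number was thus weak at most, and these values do not settle whether it was absent. Genes with few reads, such as HMOX1, CDK1 and TTK, carry wide errors at this depth.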

Other observations

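Transcripts of 1 vitellogenin gene, vtg7, were high in KO APAP livers. Vitellogenins are the yolk precursors that an adult female's liver secretes under estrogen. Of the 3 tested genes of the yolk precursor list, 2 had a positive and 1 a negative difference in response, and none passed the test. The gene vtg7 averaged 1213 ± 854 CPM in KO APAP livers, against 1.68 ± 0.728 in KO DMSO livers, and 17.0 ± 18.5 in WT APAP livers, against 0.534 ± 0.504 in WT DMSO livers (SD, n = 4 each). It rose in both genotypes, by 9.46 in KO and 4.97 in WT livers on the log2 scale (adjusted p = 7.47e-08 and 0.000312 in edgeR), and under APAP it was higher in KO livers by 6.14 (adjusted p = 9.28e-06). The difference in response, 4.50 ± 1.36, had an adjusted p of 0.220. The second vitellogenin gene tested, vtg1, averaged 4.58 ± 3.02 CPM in KO APAP livers, against 0.0589 ± 0.118 in KO DMSO livers, and 0.911 ± 0.811 in WT APAP livers, against 0.0442 ± 0.0883 in WT DMSO livers, with a difference of 2.11 (adjusted p = 0.905).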
